A study of Mus musculus with 22 samples.

Results

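Promoters that carried the repressive mark H3K27me3 without the active mark H3K4me3 were examined in mouse embryonic stem cells. Each annotated transcription start site (TSS) was given a window reaching 1 kb upstream and 1 kb downstream, and a gene was taken when at least 1 of its windows touched a wild-type H3K27me3 peak and none touched a wild-type H3K4me3 peak. This was the case for 222 of 21827 protein-coding genes (GENCODE M21 basic set, mm10). These 222 genes were selected on the wild-type H3K27me3 and H3K4me3 lists, so the presence of the first mark and the absence of the second are not results. By the same windows, 3984 genes had both marks (bivalent), 10322 had H3K4me3 only and 7299 had neither. These are counts of genes, called promoters below. A gene with several starts was called bivalent also where each mark lay at a different start.

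The study profiled chromatin by immunoprecipitation and sequencing (ChIP-seq) in embryonic stem cells cultured with serum and LIF. Wild-type cells were of the E14 line, and the other cells were homozygous for a cassette that traps Mtf2 within its coding sequence (Mtf2 GT/GT). The labels give the line of the latter only as Mtf2 GT/GT in one field and as E14 in another, so genotype and line background cannot be told apart, and no list of MTF2 peaks in gene-trap cells was analysed, so loss of MTF2 was not checked here. The peak lists used here cover EZH2 and both histone marks in each of the 2 lines, and MTF2 in wild-type cells. Each of the 7 lists stands for 2 libraries, so there is no error between replicates, and intervals and p-values cover counting over genes only. Depth is unknown, and a peak that is not in a list may be below its threshold.

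H3K27me3 is laid down by Polycomb repressive complex 2 (PRC2), whose catalytic subunit is EZH2, and it marks developmental genes that are silent in stem cells. MTF2 is a Polycomb-like partner of PRC2 that binds DNA containing unmethylated CpG. In stem cells most H3K27me3 promoters are CpG islands that also carry H3K4me3, a state called bivalent, and promoters with H3K27me3 alone are the exception.

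The sequences before the start sites of 8 of these genes show the range of CpG content among them. They are the 250 bases upstream of a start shared by RefSeq and GENCODE, read in the direction of transcription from the RefSeq promoters of GRCm38.p6, and capitals mark each CG. The genes were chosen after their values were seen. Hoxd12, a homeobox gene of limb and trunk patterning (chr2:74674763-74675012, plus strand), Kcns1, a modifier subunit of potassium channels (chr2:164171114-164171363, minus strand), and Zfp36l3, an RNA-binding protein (chrX:53776395-53776644, minus strand), had both an MTF2 and an EZH2 peak at the window. So had Lor, which encodes loricrin of the cornified epidermis (chr3:92083143-92083392, minus strand), with a single CG, but its nearest MTF2 peak began 662 bp from the start. Mfsd4b1, a transporter of the major facilitator family (chr10:40025269-40025518, minus strand), had MTF2 without EZH2. Gtf2a1l, the germ-cell form of a TFIIA subunit (chr17:88668410-88668659, plus strand), Tnf, the inflammatory cytokine (chr17:35202008-35202257, minus strand), and Il13, a cytokine of type 2 immunity (chr11:53634703-53634952, minus strand), had neither.
Hoxd12: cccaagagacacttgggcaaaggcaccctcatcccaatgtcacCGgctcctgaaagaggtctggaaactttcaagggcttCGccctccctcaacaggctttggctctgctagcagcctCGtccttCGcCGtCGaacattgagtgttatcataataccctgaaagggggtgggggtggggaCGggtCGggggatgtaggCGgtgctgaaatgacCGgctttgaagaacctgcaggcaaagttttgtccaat
Kcns1: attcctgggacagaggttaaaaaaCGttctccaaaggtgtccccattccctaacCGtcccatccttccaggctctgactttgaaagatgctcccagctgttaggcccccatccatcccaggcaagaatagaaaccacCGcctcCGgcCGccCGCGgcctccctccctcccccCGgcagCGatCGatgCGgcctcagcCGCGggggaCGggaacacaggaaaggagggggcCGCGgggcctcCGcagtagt
Zfp36l3: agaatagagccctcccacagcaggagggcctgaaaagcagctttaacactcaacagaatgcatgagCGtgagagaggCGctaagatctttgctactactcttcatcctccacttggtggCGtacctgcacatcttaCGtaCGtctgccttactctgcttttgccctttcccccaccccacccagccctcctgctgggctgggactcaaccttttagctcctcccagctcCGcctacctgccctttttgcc
Lor: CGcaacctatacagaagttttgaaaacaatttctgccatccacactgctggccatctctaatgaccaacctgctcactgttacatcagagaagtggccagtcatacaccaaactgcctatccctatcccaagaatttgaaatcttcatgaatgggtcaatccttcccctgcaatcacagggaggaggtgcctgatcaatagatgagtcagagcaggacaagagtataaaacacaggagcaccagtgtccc
Mfsd4b1: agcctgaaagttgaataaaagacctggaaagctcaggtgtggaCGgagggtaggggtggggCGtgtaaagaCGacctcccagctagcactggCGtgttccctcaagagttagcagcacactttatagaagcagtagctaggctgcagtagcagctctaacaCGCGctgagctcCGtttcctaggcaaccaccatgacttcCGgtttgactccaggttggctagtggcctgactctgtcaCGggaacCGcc
Gtf2a1l: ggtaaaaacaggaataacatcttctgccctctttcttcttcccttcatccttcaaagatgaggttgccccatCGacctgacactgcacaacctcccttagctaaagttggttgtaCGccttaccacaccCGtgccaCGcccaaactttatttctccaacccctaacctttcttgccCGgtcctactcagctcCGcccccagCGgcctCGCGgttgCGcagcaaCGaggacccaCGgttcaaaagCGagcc
Tnf: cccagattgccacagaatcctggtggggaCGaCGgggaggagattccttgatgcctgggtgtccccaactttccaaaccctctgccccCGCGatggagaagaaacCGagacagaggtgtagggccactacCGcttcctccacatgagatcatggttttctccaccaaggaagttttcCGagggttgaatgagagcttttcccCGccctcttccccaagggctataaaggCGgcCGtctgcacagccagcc
Il13: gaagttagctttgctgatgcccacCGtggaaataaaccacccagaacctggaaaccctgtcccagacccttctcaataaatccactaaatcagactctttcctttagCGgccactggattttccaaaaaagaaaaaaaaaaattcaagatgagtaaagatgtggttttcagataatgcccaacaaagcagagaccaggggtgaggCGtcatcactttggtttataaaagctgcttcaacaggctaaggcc

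The printed stretches hold 10 CG in Hoxd12, 17 in Kcns1, 6 in Zfp36l3, 1 in Lor, 10 in Mfsd4b1, 13 in Gtf2a1l, 10 in Tnf and 3 in Il13. Over all 32817 RefSeq promoters, 92.1% of such 250-base stretches held CG and 76.6% held GCG, counted on either strand. By gene symbol, 163 RefSeq promoters matched 138 of the 222 genes, and 69 of these genes had a RefSeq start that was also a GENCODE start. The 163 promoters held CG in 96.9% and GCG in 82.8%, with a median of 6 CG, the same median as over all RefSeq promoters. Of these, the 29 promoters of genes with MTF2 at the window had medians of 8 CG and 5 GCG, and the 134 of genes without it had medians of 5 CG and 2 GCG. Promoters of bivalent genes had a median of 15 CG, and 95.0% held GCG. Each GCG contains a CG, so the counts overlap.

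CpG content was low at these promoters. Density was counted in the 1 kb around each start, and the highest value among a gene's starts was taken, in all classes. Of the 222 genes, 138 had 1 start, and at the others the start taken may lack H3K27me3. The 222 had a median of 2.45 CpG per 100 bp (range 0.4 to 7.2). The median was 6.8 at bivalent promoters, 6.5 at promoters with H3K4me3 only and 0.9 at promoters with neither mark. A promoter was called CpG-rich by the 1 kb around any of its starts. This needed a GC share of at least 0.5 and an observed to expected CpG ratio of at least 0.6. Only 12 of the 222 were CpG-rich (5.41%, 95% Clopper-Pearson interval 2.82 to 9.25), against 2889 of 3984 bivalent promoters (72.5%) and 49.2% of all promoters. The difference from bivalent promoters passed the test (odds ratio 0.0217, Fisher exact test, 2-sided, Benjamini-Hochberg adjusted over 8 tests, adjusted p = 2.67e-94). The 12 were Calb1, Gm28308, Gm4969, Hormad1, Hoxa3, Htr2c, March10, Pou3f4, Skor2, Slc25a31, Spo11 and Tex12. Slc25a31, the ADP/ATP carrier of germ cells, had 6.1 CpG per 100 bp, and Pou3f4, a POU factor of the inner ear and brain, had 4.2.

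**Figure D1:**
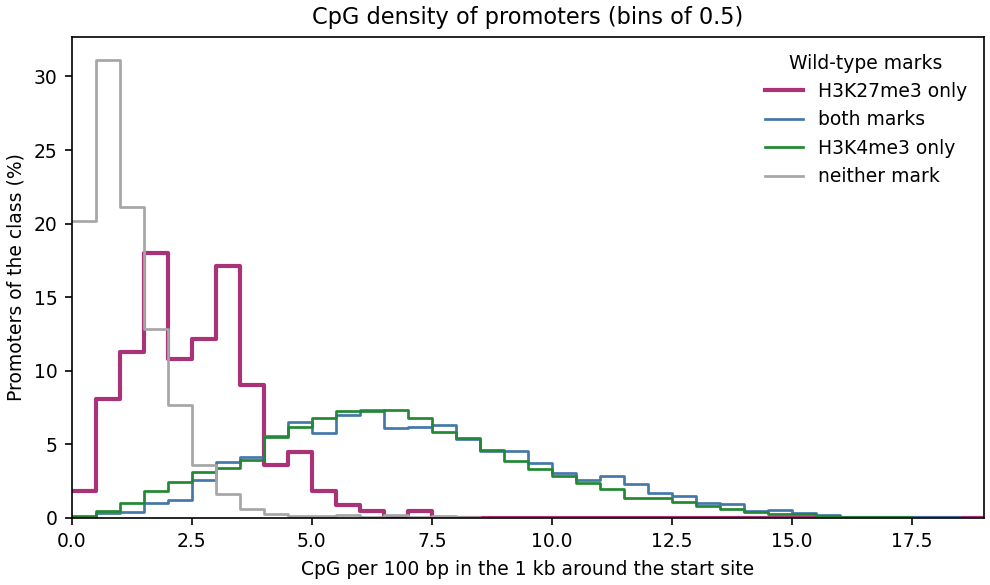
Share of promoters of each wild-type class (percent, vertical axis) by CpG per 100 bp in the 1 kb around the start site (horizontal axis, bins of 0.5). For a gene with several starts the highest value was taken. The promoters with H3K27me3 only, with a median of 2.45, lie between those with neither mark (median 0.9) and the 2 classes with H3K4me3 (medians 6.8 and 6.5).

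MTF2 and EZH2 were called at few of these promoters. An MTF2 peak touched a window of 44 of the 222 genes (19.8%, interval 14.8 to 25.7), against 3282 of 3984 bivalent promoters (82.4%) and 15.9% of all promoters (odds ratio against bivalent 0.0529, Fisher exact test, adjusted p = 9.13e-85). An EZH2 peak touched 48 (21.6%, interval 16.4 to 27.6), against 84.6% of bivalent promoters and 16.6% of all promoters (odds ratio 0.0501, Fisher exact test, adjusted p = 1.37e-88). Promoters with neither mark had MTF2 in 4 of 7299 and EZH2 in 4 of 7299. MTF2 and EZH2 lay together at 34 of the 222, EZH2 without MTF2 at 14, MTF2 without EZH2 at 10, and neither at 164.

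The difference from bivalent promoters moved with CpG density. In the lowest of 5 classes of CpG density of about equal size, a split added after the data were seen, 0.4 to 4.2 per 100 bp, MTF2 was called at 28 of 202 of these promoters (13.9%) and at 416 of 664 bivalent ones (62.7%). In the next class, 4.3 to 5.8, it was called at 14 of 17 (82.4%) and at 649 of 809 (80.2%). The third class held 3 of the 222 and the upper 2 classes held none. Across the classes the odds ratio was 0.127 for MTF2 and 0.134 for EZH2, each over 1.5 times nearer to 1 than without classes. The lowest class is wide, so CpG density was not equal within it. Among the 222 genes, MTF2 was called at 8 of 12 CpG-rich promoters and at 36 of 210 others (17.1%; odds ratio 9.67, Fisher exact test, adjusted p = 0.000406). Under a stricter definition only 2 were CpG-rich, 1 of them with MTF2, and the test did not pass. For genes with no H3K4me3 within 5 kb the odds ratio was 6.06. Hoxa3 and Gm28308, both CpG-rich, share an H3K27me3 peak. With genes that share such a peak counted once, MTF2 was called at 7 of 11 and 34 of 201 (odds ratio 8.60).

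**Figure D2:**
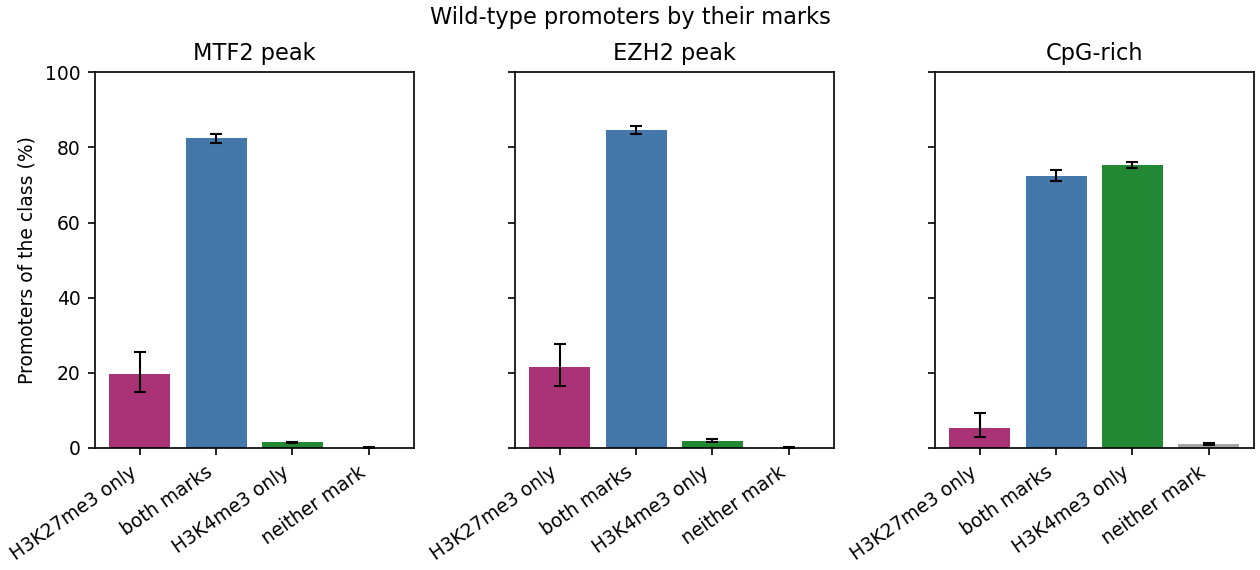
Share of promoters (percent, vertical axis) with an MTF2 peak, with an EZH2 peak, and called CpG-rich, for the 4 wild-type classes; error bars are exact 95% intervals over genes. The promoters with H3K27me3 only stand at 19.8%, 21.6% and 5.41%, far below the bivalent promoters at 82.4%, 84.6% and 72.5%.

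The promoters with both MTF2 and EZH2 and the widest H3K27me3 peaks were those of Hox genes, which pattern the body axis, and of Zic4, a zinc finger factor of the hindbrain. Hoxb1, Hoxb2 and Hoxb3 shared a H3K27me3 peak of 133253 bp, with 35 MTF2 peaks inside it. Hoxa3 lay in a peak of 118123 bp, Hoxd12 in one of 72082 bp and Zic4 in one of 39458 bp. These peaks ran over whole gene clusters and touched 14, 18, 10 and 5 H3K4me3 peaks, at the HoxB, HoxA, HoxD and Zic loci in that order. The 5 Hox genes of the set were 5 of 39 in the genome, and the other 34 were bivalent. Hoxa3 was judged by 1 annotated start, whose nearest H3K4me3 peak lay 2863 bp upstream, at the promoter of Hoxa7. The predicted gene Gm28308 starts close to it in the same H3K27me3 peak and was counted as well. EZH2 without MTF2 was called at Rbpjl, a paralogue of the Notch effector Rbpj, Elovl3, a fatty acid elongase, Foxq1, a forkhead factor, and Nhlh2, a neuronal helix-loop-helix factor. Their H3K27me3 peaks were 6765 to 12170 bp wide, and each also held MTF2 outside the window. The nearest MTF2 peak lay 1024 bp from the start at Foxq1, 1033 bp at Rbpjl, 1113 bp at Nhlh2 and 3598 bp at Elovl3. The first 3 of these lay close to the edge of the 1 kb window. MTF2 without EZH2 was called at Mfsd4b1, Col24a1 (a fibrillar collagen), Slc25a31 and Kcne1l (an accessory subunit of potassium channels), where the MTF2 peaks were 281 to 628 bp wide.

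Of the widest H3K27me3 peaks with neither protein at the window, those of Wnt8a (14266 bp) and Fgf6 (12300 bp) belong to signalling ligands, and that of Tnf was 12275 bp. The nearest MTF2 peak was 4994 bp from the start of Wnt8a and 64510 bp from that of Fgf6. At Tnf the same H3K27me3 peak held 2 MTF2, 2 EZH2 and 2 H3K4me3 peaks, at the neighbouring promoters of Lta and Ltb. Such an arrangement was common. Of the 178 promoters without MTF2 at the window, 73 had it elsewhere in the same H3K27me3 peak, and 67 of the 174 without EZH2 had EZH2 elsewhere in it.

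The absence of H3K4me3 thus holds for the window and not always for the H3K27me3 peak. The peak that touched the window also touched an H3K4me3 peak farther away at 109 of the 222 genes (49.1%, interval 42.3 to 55.9), and at the other 113 it touched none. As the rule used both lists, this is a description. The distance from the start to the nearest H3K4me3 peak had a median of 4621 bp and ran from 1025 to 719176 bp. It was at most 2 kb at 76 genes, at most 5 kb at 112 and over 10 kb at 91. The nearest members to the edge of the rule were Ankrd65 and Lor, at 1025 bp, and Hoxd12, at 1031 bp, and just outside it lay Lrg1 at 993 bp, Gm15557 at 989 bp and Cnfn at 979 bp. On the side of H3K27me3, Gm49353 (984 bp), Fgf21 (951 bp) and Aspdh (947 bp) were just inside, and Pax4 (1023 bp), Amh (1136 bp) and Ubd (1159 bp) just outside. The genes farthest from H3K4me3 were Dcc, a netrin receptor (719176 bp), Adgrl4, an adhesion receptor of endothelium (668796 bp), Pou3f4 (396255 bp), Dgkk, a diacylglycerol kinase (377947 bp), Tnc, the matrix protein tenascin C (368070 bp), and Cdh18, a cadherin (337021 bp).

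The 2 sets differed in more than their distance. Where the H3K27me3 peak also touched H3K4me3, it was wider (median 4847 bp against 2769 bp), the promoter had fewer CpG (median 1.7 against 3.1 per 100 bp), and the start lay inside the H3K27me3 peak at 60 of 109 genes against 96 of 113. The H3K4me3 peak nearest to the start, which need not be the one touched, lay in the gene's own body at 74 of the 109. MTF2 was called somewhere in the H3K27me3 peak at 89 of 109 genes where the peak touched H3K4me3 and at 28 of 113 where it did not. At the window itself the counts were 19 of 109 and 25 of 113. Where the peak touched no H3K4me3, the MTF2 peaks at the window were narrow (median 331 bp, against 2842 bp in the other set).

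**Figure D3:**
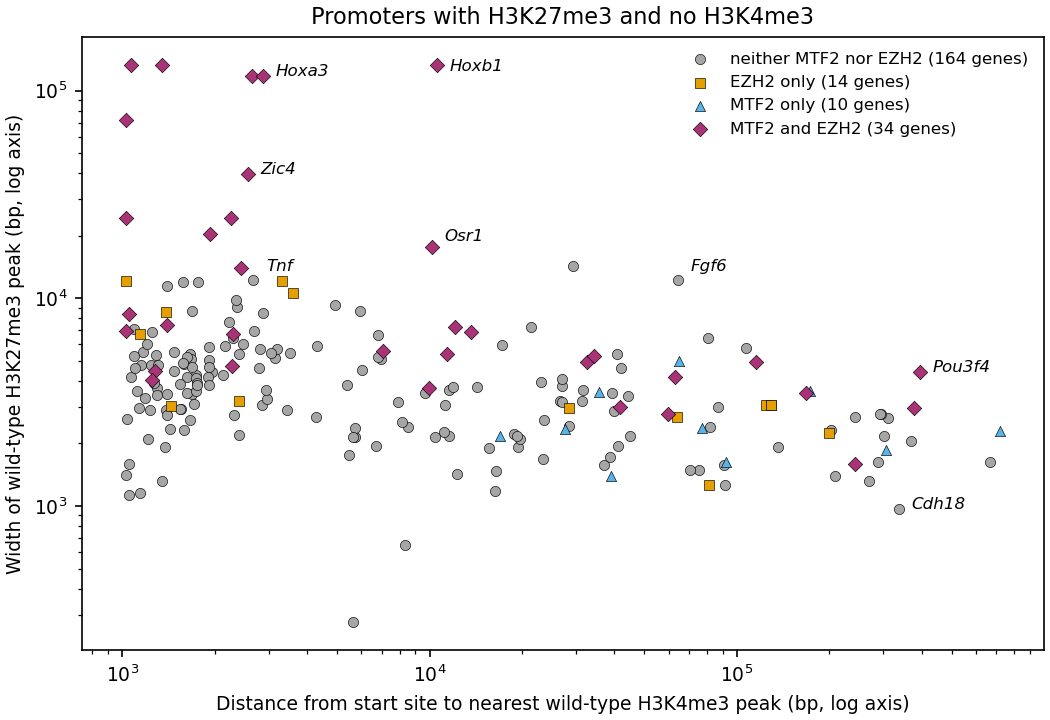
Each point is a gene with H3K27me3 and no H3K4me3, by the distance from its start site to the nearest wild-type H3K4me3 peak (bp, log horizontal axis) and the width of its H3K27me3 peak (bp, log vertical axis), with colour for MTF2 and EZH2 at the window. The widest peaks, up to 133253 bp, carry both proteins, and the 91 genes over 10 kb from H3K4me3 include all 10 with MTF2 only.

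Families were defined by the start of the gene symbol and leave out related genes with other symbols. Among the 222 these include Lor and Krtdap of the epidermis and the cytokines Osm and Tslp. Of the families so defined, the largest group was that of the protocadherins, neuronal adhesion proteins, with 19 of 68 genes (27.9%) against 1.02% of all genes. Most were clustered Pcdhb genes of chromosome 18, and 35 other protocadherins were bivalent. The Pcdhb genes are close copies of each other, so reads may not have been placed uniquely and these calls are uncertain. At 14 of the 16 Pcdhb genes the nearest H3K4me3 peak lay downstream in the gene's own body, 1541 to 1764 bp from the start. MTF2 touched the window of 1 of the 19 protocadherins. Leaving the family out changed the call of none of the 8 tests, and it moved 2 odds ratios by over 1.5 times, which are given with their tests.

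Other families gave few genes each. Developmental transcription factors gave 4 of 198 (Foxq1, Nkx2-6, Pou3f4 and Zic4), and 151 of the 198 were bivalent. Signalling ligands gave 3 of 80, which were Wnt8a, Fgf6 and Fgf21, a hormone of the liver. G protein-coupled receptors gave 8 of 157, among them Chrm1 and Grm5, which are receptors for acetylcholine and glutamate, and Mc1r, the melanocortin receptor of pigment cells. Ion channels gave 7 of 234, such as Cacna1s, the calcium channel of skeletal muscle, and Kcnj9, a potassium channel. Cytokines and chemokines of the symbol list gave 2 of 110 (Il13 and Tnf), genes named Krt, Krtap, Sprr or Lce 2 of 146 (Krt1 and Krtap17-1), collagens and matrix enzymes 2 of 97 (Adamts16 and Col24a1), solute carriers 2 of 371 (Slc16a8 and Slc25a31), immune surface proteins 1 of 157 (Cd72, of B cells), and genes named Zfp 1 of 394 (Zfp36l3). Olfactory, vomeronasal and taste receptors gave 2 of 1514 (Olfr95 and Olfr1339), of which 1507 had neither mark. Cytochromes P450, serpins, defensins, ribosomal proteins and replication-dependent histones gave none. Only 58 of the 222 fell into any of the 18 families.

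Markers of the cell type were examined in both lines by the same windows. Of 10 embryonic stem cell genes, 9 had H3K4me3 without H3K27me3 in wild-type and in gene-trap cells, and Esrrb had both marks in both. Of 5 fibroblast genes, Col1a1, Col1a2 and Thy1 had both marks in wild-type cells and H3K4me3 without H3K27me3 in gene-trap cells, and S100a4 and Postn had neither mark in either.

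In gene-trap cells most of the promoters had lost the H3K27me3 call. A gene-trap H3K27me3 peak touched the window of 22 of the 222 (9.91%, interval 6.32 to 14.6), against 556 of 3984 bivalent promoters (13.96%) and 13.7% of all promoters with wild-type H3K27me3. The difference from bivalent promoters did not pass the test (odds ratio 0.678, Fisher exact test, adjusted p = 0.108). It passed, with fewer of these promoters keeping the mark, for the 110 genes with no H3K4me3 within 5 kb (4 of 110, odds ratio 0.233, Fisher exact test, adjusted p = 0.00102), with windows of 2.5 kb and with peaks of at least 500 bp. Within 5 classes of CpG density the direction turned (odds ratio 1.16), and the Cochran-Mantel-Haenszel test did not pass. EZH2 was kept at 7 of the 48 promoters that had it (14.6%), and 4.24% of all promoters with wild-type EZH2 kept it. With no H3K4me3 within 5 kb, EZH2 was kept at 1 of 24 (4.17%). Among the 7 were Hoxb2, Hoxb3, Hoxd12, Zic4 and Osr1, a zinc finger factor of intermediate mesoderm.

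H3K27me3 was kept at 15 of 44 promoters with wild-type MTF2 (34.1%) and at 7 of 178 without (3.93%; odds ratio 12.6, Fisher exact test, adjusted p = 3.13e-07). Kept promoters lay in wide peaks, in wild-type cells 15862 bp wide at the median, where all 222 had a median of 3632 bp, and within 5 classes of width the odds ratio was 9.60. It was 20.9 without protocadherins, 4.81 with windows of 2.5 kb and 35.8 with peaks of at least 500 bp. With no H3K4me3 within 5 kb it was kept at 2 of 27 with MTF2 and 2 of 83 without (odds ratio 3.24, Fisher exact test, adjusted p = 0.252). At Hoxd12 the gene-trap peak was 59179 bp wide against 72082 bp in wild-type cells, and at Osr1 14145 against 17686 bp. At Hoxb1 it was 10625 bp, at Hoxb2 and Hoxb3 35368 bp, and at Hoxa3 9051 bp, in peaks of 133253 and 118123 bp in wild-type cells. The gene-trap peak was the narrower at 21 of the 22. At Duxf3, a gene of a repeat array where reads may not be placed uniquely, it was wider, 2985 bp against 1952 bp.

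H3K4me3 was gained at many of the promoters. A gene-trap H3K4me3 peak touched the window of 78 of the 222 (35.1%, interval 28.9 to 41.8), against 223 of 7299 promoters with neither wild-type mark (3.06%) and 4.00% of all promoters without wild-type H3K4me3 (odds ratio 17.2, Fisher exact test, adjusted p = 1.12e-54). At all 78 genes such a peak lay at a start whose window held wild-type H3K27me3. At 67 of the 78 genes it overlapped no wild-type H3K4me3 peak. The gained peaks had a median width of 892.5 bp over the 78 genes and covered a start at 53 genes. A peak shared by several genes was counted for each of them. With CpG density in 5 classes the odds ratio was 6.28, and in the uppermost class, a wide one of 1.9 to 12.8 CpG per 100 bp, the gain was seen at 70 of 141 promoters against 167 of 1245 (49.6% and 13.4%). Promoters that gained it had a median of 3.3 CpG per 100 bp and those that did not 1.8.

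The gain was found both near and far from wild-type H3K4me3. It was seen at 46 of the 91 genes over 10 kb from a wild-type peak, and at 26 of 109 whose H3K27me3 peak touched one. With MTF2 and EZH2 at the window, 28 of 34 promoters gained H3K4me3, and with neither, 33 of 164. The widest H3K27me3 peaks at promoters that gained H3K4me3 and lost H3K27me3 were at Rbpjl, Elovl3, Nhlh2, Rnf207 (a ubiquitin ligase of heart muscle), Hesx1 (a homeobox factor of the pituitary and forebrain) and Vrtn (a gene of vertebral number). The gene-trap H3K4me3 peaks at these 6 windows were 613 to 3483 bp wide, and those of Rbpjl and Nhlh2 overlapped a wild-type H3K4me3 peak outside the window. Pou3f4, Dgkk, Tnc and Cdh18, 4 of the 6 farthest from wild-type H3K4me3, gained peaks of 1332, 2153, 758 and 615 bp, and Dcc and Adgrl4 gained none.

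**Figure D4:**
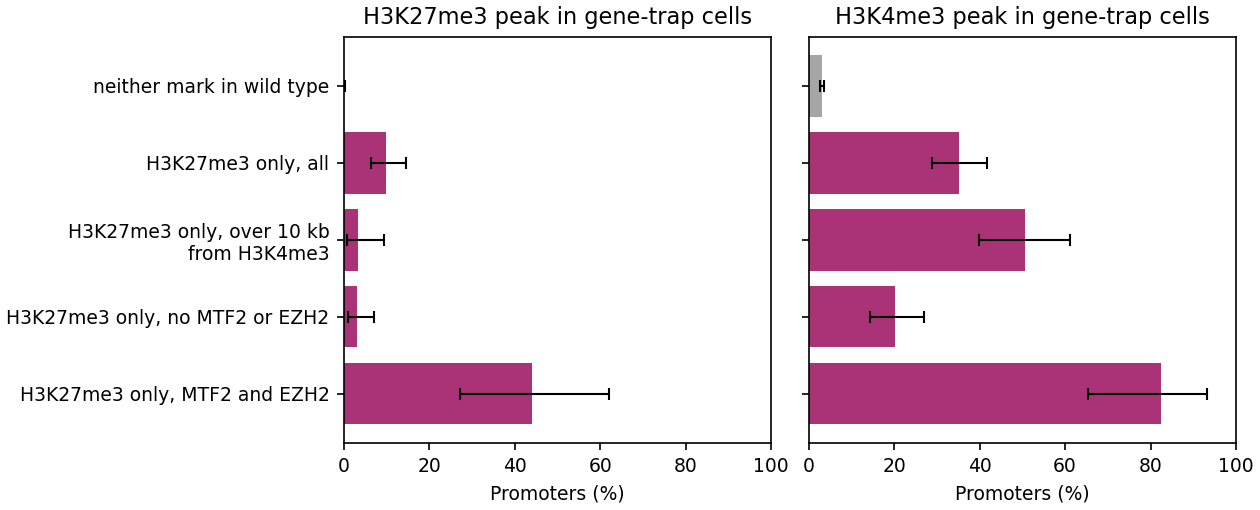
Share of promoters (percent, horizontal axes) with an H3K27me3 peak and with an H3K4me3 peak in gene-trap cells, for all 222 promoters with H3K27me3 only and for 3 subsets of them, beside the 7299 promoters with neither wild-type mark; error bars are exact 95% intervals over genes. H3K4me3 appears at 82.4% of those with MTF2 and EZH2 and at 3.06% of the promoters with neither mark.

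Taking both marks in gene-trap cells by the same windows, 16 of the 222 had both, 6 had H3K27me3 alone, 62 had H3K4me3 alone and 138 had neither. Where a gene had both, the peaks need not overlap. The 16 with both included Avp (vasopressin), Duxf3, Hoxa3, Hoxb1, Hoxb2, Hoxb3, Hoxd12, Kcns1, Osr1, Samd11, Skor2 (a corepressor of Purkinje cells) and Zic4. Those with H3K27me3 alone included Hpse2, Pcdhb17, Pcdhb19, Pcdhb20 and Tcam1. H3K4me3 was gained at 62 of the 200 promoters that lost H3K27me3 (31.0%) and at 16 of the 22 that kept it (72.7%; odds ratio 0.168, Fisher exact test, adjusted p = 0.000291). The odds ratio was 0.0863 without protocadherins and 0.276 with peaks of at least 500 bp. The test did not pass with the most 5' start of each gene, with windows of 2.5 kb or with no H3K4me3 within 5 kb. Of the 22 that kept H3K27me3, 15 had wild-type MTF2 at the window. H3K4me3 was gained at 35 of the 44 promoters with MTF2 and at 43 of the 178 without. Whether the contrast by kept H3K27me3 holds apart from MTF2 was not tested.

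Peak positions at 4 genes show these outcomes. The 4 were chosen after their values were seen. At Kcns1, H3K27me3 spanned 6757 bp in wild-type cells, with MTF2 at the start and again from 1892 to 3510 bp downstream. That stretch held an H3K4me3 peak from 2298 to 3376 bp. In gene-trap cells H3K27me3 of 4649 bp remained, from 400 to 5048 bp downstream, and did not cover the start. A gene-trap H3K4me3 peak of 748 bp lay over the start, from -483 to 264 bp, and did not overlap that H3K27me3 peak. At Dgkk, MTF2 of 824 bp and EZH2 of 813 bp lay in an H3K27me3 peak of 2957 bp, and in gene-trap cells an H3K4me3 peak of 2153 bp stood without H3K27me3. At Adamts16, a secreted metalloprotease, neither protein was called within an H3K27me3 peak of 2326 bp, and in gene-trap cells an H3K4me3 peak of 830 bp lay over the start. At Tnf the gene-trap lists held no peak within 1 kb of the start and kept the H3K4me3 peaks of the neighbouring promoters.

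**Figure D5:**
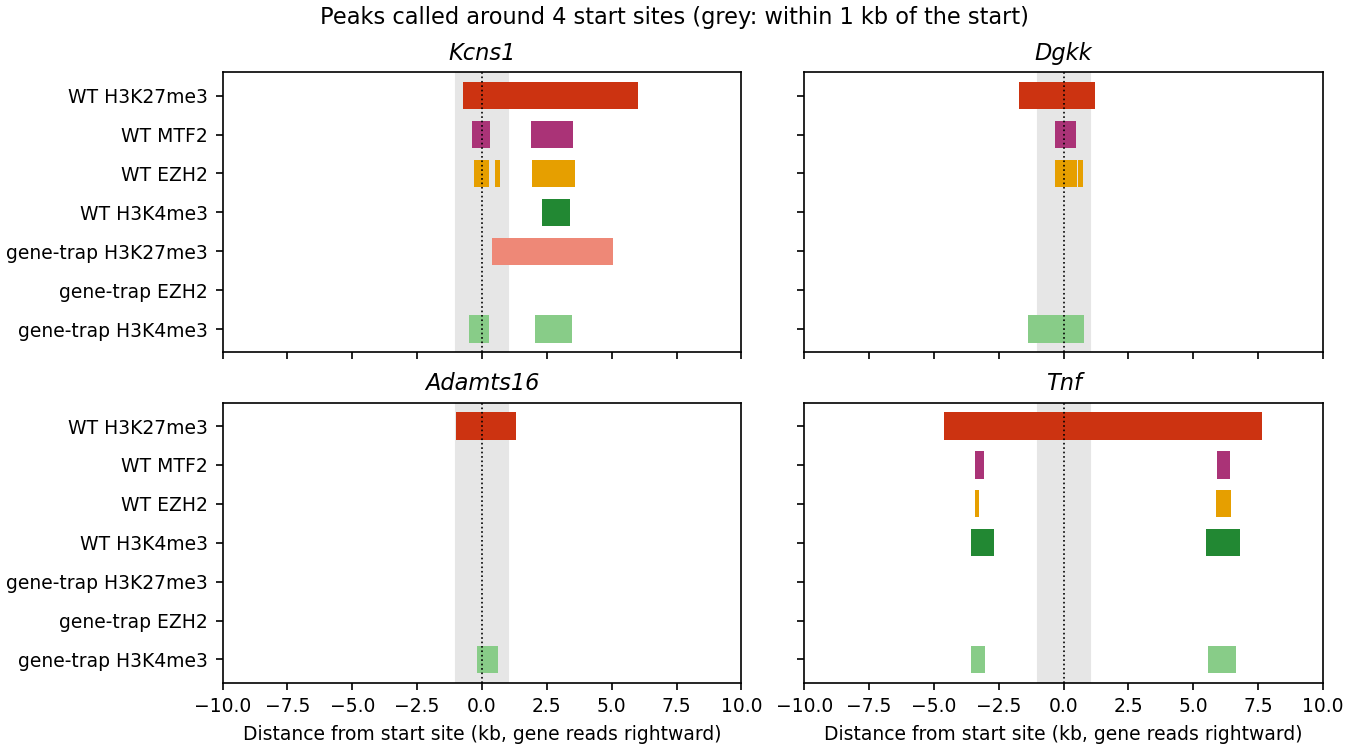
Called peaks of the 7 lists within 10 kb of the start sites of Kcns1, Dgkk, Adamts16 and Tnf (horizontal axis, distance from the start in kb, in the direction of the gene); each bar is a peak, cut at the edge of the plot, and grey marks the 1 kb on either side of the start. Gene-trap H3K4me3 covers the start at Kcns1, Dgkk and Adamts16 and not at Tnf.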

How the data were processed

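ChIP-seq of mouse embryonic stem cells was deposited by the authors as 7 peak lists of 3 columns (chromosome, start, end) with no score, each for 2 libraries, so 14 of 22 libraries were used and the other 8 were not analysed here. Per the submitters' processing notes, reads were processed with CASAVA, BWA 0.7.10-r789 and MACS2 2.7 on mm10; per the labels, reads were 75 bases. Peak thresholds and the way the libraries of a list were combined are not given in the sources used here. A peak was assigned to a gene when it overlapped the TSS window by at least 1 bp. Shares were compared by Fisher's exact test (2-sided), adjusted by Benjamini-Hochberg over 8 tests at a threshold of 0.05, with genes as units. Genes share peaks (18 of the 222 share 8 peaks), so they are not fully independent. Classes of CpG density or peak width were combined by the Cochran-Mantel-Haenszel test. Python 3.11.15, scipy 1.17.1, statsmodels 0.14.6, pandas 2.3.3 and matplotlib 3.10.9 were used, and the code was tested on simulated data. The members, gene lists and tests were chosen with earlier results of these data known. Genes were named by the width of their H3K27me3 peak within each binding or gene-trap group, by distance to H3K4me3 and by family, passing over predicted genes. Values of some members are not reported here.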

Additional observations from a re-analysis of the deposited data

How the results depend on the processing

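Of 99 alternative values, 85 kept their direction and their side of the threshold, 5 no longer passed, 3 newly passed, 5 moved and 1 reversed. The reversed value was retention of H3K27me3 against bivalent promoters within 5 classes of CpG density (odds ratio 1.16); neither it nor the main value passed. No paired analysis was possible because each list stands for both libraries of a group, and for the same reason leaving out each replicate could not be run. Fewer H3K27me3-only than bivalent promoters kept H3K27me3, past the threshold, with windows of 2.5 kb (odds ratio 0.383), peaks of at least 500 bp (0.626) and no H3K4me3 within 5 kb (0.233). Gain of H3K4me3 at promoters that lost against kept H3K27me3 no longer passed with windows of 2.5 kb (0.283), the most 5' TSS (0.508) or no H3K4me3 within 5 kb (0, from 48 of 106 against 4 of 4). With no H3K4me3 within 5 kb, 110 promoters remained, retention with against without MTF2 did not pass (3.24), and EZH2 was kept at 4.17%. The share of promoters whose H3K27me3 peak touched H3K4me3 was 26.1% with windows of 2.5 kb, 56.05% with the most 5' TSS and 1.82% with no H3K4me3 within 5 kb. MTF2 at CpG-rich against other promoters did not pass under the stricter CpG definition (4.12). The cause of these changes was not tested, except that the 5 kb and stricter CpG settings leave fewer promoters. Odds ratios ranged from 0.0477 to 0.127 for MTF2, from 0.0130 to 0.0297 for CpG-rich promoters and from 6.28 to 28.4 for gain of H3K4me3.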

Other observations

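Several genes of meiosis and sperm were among the 222, and they were picked out after their values were seen. Such genes were not counted over all genes, so no share can be set beside them. Spo11, which makes the DNA breaks of meiosis, had an H3K27me3 peak of 2107 bp, and Hormad1, a protein of the meiotic chromosome axis, had one of 2956 bp with EZH2 at the window. Tex12, of the synaptonemal complex, had a peak of 4934 bp with MTF2 and EZH2 and gained an H3K4me3 peak of 552 bp in gene-trap cells. Spata22, a meiotic recombination factor, had a peak of 3072 bp with EZH2 and gained H3K4me3 of 513 bp. Gm49340 has the same start and Aspa starts close by, with the same values, so these peaks cannot be assigned to Spata22 alone. The protamine genes Prm1 and Prm2, which package sperm DNA, shared a peak of 2139 bp. Spo11, Hormad1, Prm1 and Prm2 gained no H3K4me3 peak in gene-trap cells, where 35.1% of the 222 genes gained one.

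When the same rule was applied to the gene-trap lists, 9 genes had H3K27me3 and no H3K4me3. Of these, 6 had been so in wild-type cells and 3 had neither mark there.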
